A study of Homo sapiens with 12 samples.

Results

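The cytosolic ribosomal protein genes were followed in RCC4 cells after knockdown of the HIF transcription factors. Members were chosen by symbol, as all symbols that begin with RPL or RPS followed by digits, together with RPLP0, RPLP1, RPLP2 and RPSA. Of 123 symbols of this form, 10 RPS6K kinase genes and 24 pseudogenes were left out, which gave 89 members among the 23106 gene symbols measured. The members are 46 genes of the large ribosomal subunit, 31 genes of the small subunit, 11 paralogs of these genes and RPS19BP1, which the symbol rule takes in although its product binds the ribosomal protein encoded by RPS19 and is not a subunit. Each cytosolic ribosome is built from ribosomal RNA and from proteins that these genes encode, so their products are needed in near equal numbers, and dividing cells make large amounts of the mRNAs. Most of these mRNAs begin with a run of C and T bases, the 5′ terminal oligopyrimidine (TOP) tract, through which the kinase mTOR and the RNA-binding protein LARP1 control their translation and stability. HIF-1 and HIF-2, whose alpha subunits are encoded by HIF1A and EPAS1, are the transcription factors that accumulate in hypoxia and in clear cell renal cell carcinoma (ccRCC) after loss of VHL.

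RCC4 is a human ccRCC cell line that lacks functional VHL. The 4 groups of 3 libraries each were sequenced from polyA RNA taken 48 h after reverse transfection of siRNA pools. The total siRNA concentration was 2 nM in every dish. Control cells received 2 nM of control siRNA, HIF1A siRNA cells 1 nM of HIF1A siRNA and 1 nM of control siRNA, HIF2A siRNA cells 1 nM of siRNA against EPAS1 and 1 nM of control siRNA, and double knockdown cells 1 nM of each HIF siRNA and no control siRNA. All groups are a single VHL-deficient line, which the growth protocol in the labels kept in normal oxygen, and the knockdown is transient. The labels number the libraries of each group from 1 to 3, and the study's methods call these biological replicates. No source says whether these came from separate cultures, so p-values measure the spread between these libraries.

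Libraries held 13263168 to 20451433 counts in total. HIF1A mRNA was at 120.2, 58.2 and 112 CPM (counts scaled to library size with TMM factors) with control siRNA, at 14.99, 17.8 and 22.2 with HIF1A siRNA, at 111, 116 and 136 with HIF2A siRNA and at 24.2, 32.2 and 29.7 in the double knockdown, in replicates 1, 2 and 3. EPAS1 mRNA was at 163, 138 and 171 CPM with control siRNA, at 101, 107 and 134 with HIF1A siRNA, at 9.16, 11.9 and 9.33 with HIF2A siRNA and at 8.54, 11.3 and 7.01 in the double knockdown. Each targeted mRNA was lower in every library that received its siRNA than in every library that did not. Markers of renal epithelium and ccRCC, such as PAX8, KRT18 and CA9, passed the expression filter for 11 of 12 genes, with a summed level from 1153 to 2430 CPM (1 value per library). Of 5 endothelial markers 0 passed, with a summed level of at most 0.432 CPM, and 1 of 5 immune and 4 of 5 fibroblast or pericyte markers passed, with summed levels of 32.9 to 65.1 and 31.4 to 99.3 CPM. The part of these other markers in the results was not tested.

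The start sites of the members that the results turn on are shown first, because the TOP tract is the sequence feature that these genes are known to share. RefSeq promoters (GRCh38.p14) matched 70 of the 89 members by symbol, of which 62 are subunit genes. A tract was counted as a C followed by at least 4 more C or T bases. The annotated first base opened such a run in 42 of the 62 subunit genes (67.7%), against 4.04% of 27303 promoters and 5.42% of the 9472 promoters of genes tested here. With up to 10 bases allowed on either side of the annotated start, the shares were 88.7% and 33.3%. Each window below runs from 10 bases before the annotated start to 15 bases from the start on, read 5′ to 3′ on the strand of the gene. Capitals mark the bases of the longest tract that begins within 10 bases of the start, as far as the window reaches. The first 6 genes had the smallest p in the double knockdown, the next 3 had the smallest p between replicate numbers, and the last 3 departed from the pattern of the other members.
RPS4X (chrX:72277234-72277258, minus strand): ctccagccccaatttctacgcgcac
RPL13A (chr19:49487598-49487622, plus strand): aaaCCTCCTCCTTTTCCaagcggct
RPL34 (chr4:108620566-108620590, plus strand): CTTTTTTCTTCCTCTTCCggggacg
RPS29 (chr14:49598696-49598720, minus strand): agcgcgcagctggcagcggtggttg
RPL7A (chr9:133348208-133348232, plus strand): attCCCTTTCCTTTCTCTCTCCTCC
RPL6 (chr12:112411428-112411452, minus strand): gtatcctcagtgaatcagaaccaga
RPS13 (chr11:17077653-17077677, minus strand): ctctcgCTCTCCTTTCgttgcctga
RPS14 (chr5:150449725-150449749, minus strand): ccctcccaCTCTCTCTTTCCggtgt
RPLP2 (chr11:809957-809981, plus strand): tcggcgCCTTCCTTTTCCTCCCTgt
RPL41 (chr12:56116623-56116647, plus strand): cttcgCCTTTCTCTCggccttagcg
RPL10A (chr6:35468391-35468415, plus strand): aagacatgctagtCTCTTTTCCggt
RPL7L1 (chr6:42879606-42879630, plus strand): gtgcggcgccgtagctaggagcgga
Long tracts stood at the annotated starts of RPL7A, RPL34, RPLP2 and RPL13A, while the windows of RPS4X, RPS29, RPL6 and RPL7L1 held none. The starts used in RCC4 cells were not measured, so a window without a tract does not show that the mRNA lacks one. The core of the HIF binding motif, ACGTG or GCGTG on either strand, was found in the 300 bases (250 before and 50 from the start on) of 77.4% of the 62 subunit genes, against 48.4% of all promoters and 63.1% of those of genes tested. The form ACGTG alone was found in 30.6% of the subunit genes, against 21.6% of all promoters and 26.7% of those of genes tested. The E-box CACGTG, a palindrome that contains ACGTG, was found in 4.84% of the subunit genes. It was found in 7.44% of all promoters and 10.1% of those of genes tested. These matches describe the letters in these windows and show no binding.

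Ribosomal protein genes took 3.44 to 6.65% of all counts of a library. The share was 3.92, 5.11 and 3.44% with control siRNA in replicates 1, 2 and 3, and 5.54, 6.65 and 4.16% in the double knockdown. With HIF1A siRNA it was 5.39, 5.28 and 3.56%, and with HIF2A siRNA 5.00, 4.50 and 3.75%. The group means were 4.16 ± 0.861%, 4.74 ± 1.02%, 4.41 ± 0.628% and 5.45 ± 1.246% (SD, n = 3 each) for control siRNA, HIF1A siRNA, HIF2A siRNA and the double knockdown. The groups overlapped, and the 4 libraries of replicate 3 (3.44 to 4.16%) lay below every library of replicates 1 and 2 but control siRNA replicate 1 at 3.92%. Within replicate numbers, the double knockdown had 1.41, 1.30 and 1.21 times the share of control siRNA. HIF1A siRNA had 1.37, 1.03 and 1.03 times, and HIF2A siRNA 1.27, 0.879 and 1.09 times the share of control siRNA. In bulk RNA, a larger share of cells that make these mRNAs and more mRNA per cell cannot be told apart.

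**Figure D1:**
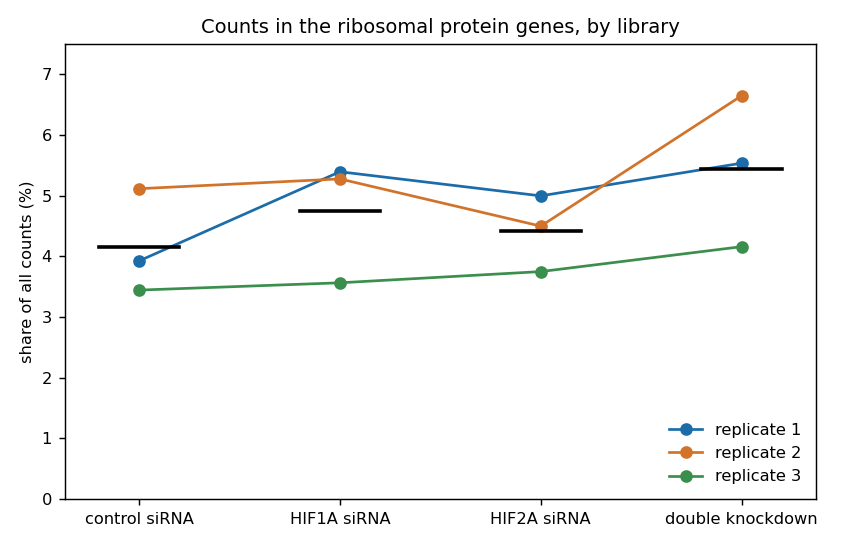
Share of all counts in the 89 ribosomal protein genes (y axis, %) for the 4 siRNA groups (x axis), with 1 point per library, lines that join the libraries of a replicate number and black bars at the group means. The double knockdown is the highest library within each replicate number, at 5.54, 6.65 and 4.16%, and replicate 3 is the lowest line throughout.

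Levels are compared between genes only per length, as CPM per kb of transcript averaged over the 12 libraries. RPS2 was highest at 2060.2 CPM per kb, followed by RPLP0, the base of the ribosomal stalk, at 1818, and by RPS12 at 1729, RPS24 at 1662 and RPS19 at 1533. The lowest members tested were RPL22L1 at 84.2 CPM per kb, RPL14 at 80.1, RPS18 at 33.2, RPL39L at 19.7 and RPL7L1 at 16.6. RPL22L1, RPL39L and RPL7L1 are paralogs, while RPS18 encodes a core protein of the small subunit. Only fragments that mapped to 1 place had been counted, and the low levels of RPS18, like those of RPL21 (0 to 3 counts per library), are uncertain for genes with near-identical copies. The transcript length assigned to RPL14, 7072 bases, is much longer than that of the other members and sets its low value per kb. RPL7L1 was assigned 4134 bases, the next longest. Before division by length its mean was 68.8 CPM, against 14.3 for RPL39L and 18.9 for RPS18, so its lowest place rests on that length.

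In the double knockdown, ribosomal protein mRNAs were higher than with control siRNA across both subunits. Of the 82 members that passed the expression filter, 17 were called and all 17 were higher (20.7%), where 10.3% of the 13000 genes tested were called in either direction and 3.86% were called higher. These were 9 of 45 genes of the large subunit and 8 of 30 of the small subunit, and 0 of 6 paralogs. An unadjusted p under 0.05 was reached by 60 of 82 members, all of them higher, against 11.5% of all genes. The fitted log2 fold change was positive in 79 members with a median of 0.37, from -0.26 to 0.59, against a median of 0.0048 over all genes tested. A gene was called when its p in the quasi-likelihood test of edgeR, adjusted over all genes tested by the method of Benjamini and Hochberg, was under 0.05 in a fit blocked on replicate number. This count rested on the block and on single libraries. It was 0 without the block, 0 without replicate 1 or without replicate 3, 2 without control siRNA replicate 1 or without double knockdown replicate 2, 4 without double knockdown replicate 1, 5 without control siRNA replicate 3 or without double knockdown replicate 3, 38 without replicate 2 and 59 without HIF2A siRNA replicate 2.

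**Figure D2:**
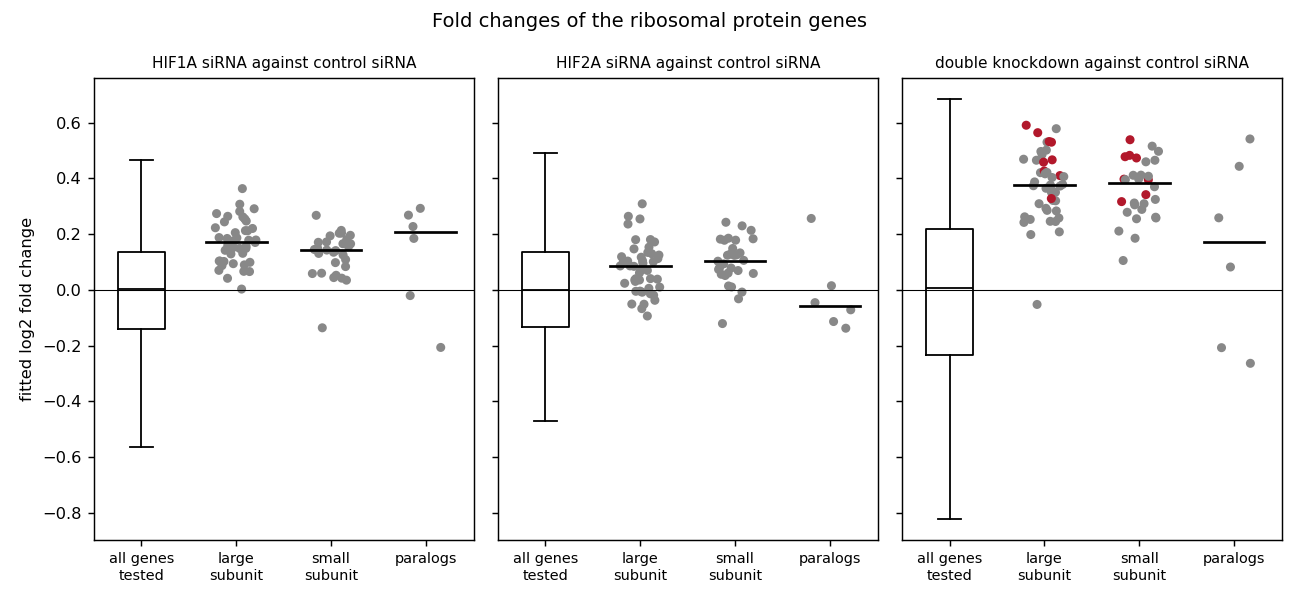
Fitted log2 fold changes (y axis) against control siRNA for HIF1A siRNA, HIF2A siRNA and the double knockdown. A box (quartiles and median) covers the 13000 genes tested, with whiskers to set outer percentiles and values beyond them not drawn. Points are ribosomal protein genes by class, 1 point per gene. Black bars are class medians and red points are called. In the double knockdown the large and small subunit genes center on 0.38, and the 17 red points are all above 0.

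The genes with the smallest p belonged to both subunits. RPS4X, a protein of the small subunit, was at 911, 1047 and 1055 CPM with control siRNA, 1122, 1192 and 1129 with HIF1A siRNA, 1075, 916 and 1221 after HIF2A siRNA and 1343, 1575 and 1457 in the double knockdown. The double knockdown libraries were all above the other 9 libraries, and the log2 fold change against control siRNA was 0.54 (SE, the standard error, 0.11, adjusted p = 0.00532 in edgeR's test). RPL13A, which is also known to leave the ribosome and repress translation of inflammatory mRNAs, was at 175, 248 and 149 CPM with control siRNA, 256, 240.2 and 152 with HIF1A siRNA, 266, 241 and 176 after HIF2A siRNA and 298, 352 and 214 in the double knockdown. Its double knockdown library was the highest of the 4 within each replicate number, but replicate 3 of the double knockdown was below replicate 2 of control siRNA. The log2 fold change of RPL13A was 0.59 (SE 0.12, adjusted p = 0.0059 in edgeR's test). RPS4X and RPL13A each lost their call in 3 of 23 alternative fits, which were those without the block, without replicate 1 and without replicate 3.

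RPL34, of the large subunit, was at 174, 242 and 146 CPM with control siRNA, 264, 276 and 149 with HIF1A siRNA, 234, 236 and 181 after HIF2A siRNA and 258, 372 and 207 in the double knockdown, and RPS29, a zinc-binding protein of the small subunit, at 105, 126 and 81.3 CPM with control siRNA, 142, 127 and 79.2 with HIF1A siRNA, 135, 125 and 93.8 after HIF2A siRNA and 165, 168 and 105 in the double knockdown. Both overlapped between the groups, with replicate 3 of the double knockdown below replicate 2 of control siRNA. Their log2 fold changes were 0.56 (SE 0.13, adjusted p = 0.0113) and 0.47 (SE 0.11, adjusted p = 0.0135 in edgeR's test). RPL7A was at 514, 641 and 527 CPM with control siRNA and 733, 890.1 and 691 in the double knockdown, and RPL6 at 647, 775 and 605 and 1008, 1112 and 823. For these 2 genes of the large subunit the groups did not overlap. Their log2 fold changes were 0.46 (SE 0.11, adjusted p = 0.0149) and 0.53 (SE 0.13, adjusted p = 0.0199 in edgeR's test). RPL34, RPS29, RPL7A and RPL6 kept their calls in 18, 17, 16 and 16 of the 23 alternative fits. The other 11 genes called were RPL3, RPL4, RPL5, RPL26, RPL35A, RPS12, RPS13, RPS16, RPS20, RPS23 and RPS24, with log2 fold changes from 0.32 to 0.53 and adjusted p from 0.0199 to 0.0455. RPL27, with the second largest fold change (0.58, SE 0.20), was not called (adjusted p = 0.084 in edgeR's test).

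Within replicate numbers the direction was shared by nearly all members. Double knockdown exceeded control siRNA in all 3 pairs for 77 of 82 members, against 26.1% of the genes tested. The median log2 ratio over the members was 0.47, 0.38 and 0.24 in pairs 1, 2 and 3, a fold of 1.39, 1.30 and 1.18, where the median over all genes was at most 0.0098. The exceptions were RPL41, RPL39L, RPL7L1, RPS18 and RPS19BP1. RPL41, the shortest ribosomal protein, was at 586, 550.3 and 506 CPM with control siRNA and 577, 493 and 509.6 in the double knockdown, with a log2 fold change of -0.05 (SE 0.14). Its groups overlapped throughout. Without regard to pairs, the lowest double knockdown library was above the highest control library for 8 members, RPL6, RPL7, RPL7A, RPL10A, RPLP0, RPS3A, RPS4X and RPS10, where 7.08% of all genes had this pattern, so that the share of members was near the background.

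**Figure D3:**
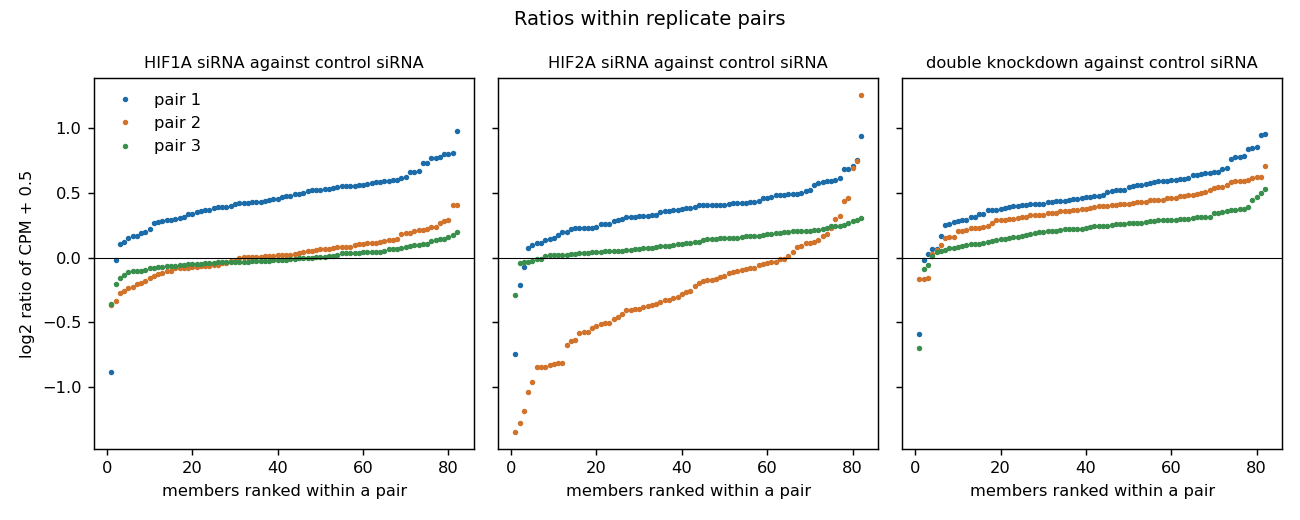
Log2 ratios of CPM + 0.5 (y axis) of the 82 tested members against control siRNA of the same replicate number, ranked within each pair (x axis), in 1 panel per comparison and 1 color per pair. All 3 curves of the double knockdown lie mostly above 0, with 80, 79 and 79 of 82 members above 0, while with HIF1A siRNA 80, 51 and 34 members are, and with HIF2A siRNA pair 2 runs from -1.34 to 1.25.

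With HIF1A siRNA alone, no ribosomal protein gene was called. The count was 0 of 82 in edgeR and 0 in DESeq2, where 1.39% of all genes were called and 0.0615% were called higher. An unadjusted p under 0.05 was reached by RPL7A and RPL34, both higher, against 3.08% of all genes. The fitted log2 fold change was positive in 79 of 82 members with a median of 0.16, and this came from 1 pair. The median log2 ratio was 0.47 in pair 1, 0.02 in pair 2 and -0.02 in pair 3, and without replicate 1 the median fold change was 0.02. A total of 25 members were higher in all 3 pairs, against 14.8% of all genes. Among these, the largest fold changes were those of RPL27, RPL23 and RPL22L1. RPL27 was at 201, 286 and 207 CPM with control siRNA and 333, 334 and 234 with HIF1A siRNA, for a log2 fold change of 0.36 (SE 0.20, adjusted p = 0.69 in edgeR's test). RPL23 was at 316, 506 and 343 and 524, 574 and 358 CPM (0.31, SE 0.27), and RPL22L1 at 83.6, 115 and 62.5 and 118, 138 and 68.5 CPM (0.29, SE 0.20). In each of these 3 genes the replicates overlapped between the groups. Without control siRNA replicate 1 their fold changes were 0.19, 0.09 and 0.17.

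With HIF2A siRNA alone, the members again held no call, and they split in 1 library. The count was 0 of 82 in edgeR and 0 in DESeq2, where 0.2% of all genes were called. An unadjusted p under 0.05 was reached by 6 members, RPL10A, RPL13A, RPL41, RPS3, RPS9 and RPSA, all of them higher, against 3.03% of all genes. The fitted log2 fold change was positive in 65 of 82 members with a median of 0.08, and 13 members were higher in all 3 pairs, against 10.9% of all genes. The median log2 ratio was 0.38, -0.26 and 0.11 in pairs 1, 2 and 3. In pair 2 the ratios spread with an SD of 0.44 over the members, against 0.22 and 0.10 in the other pairs of this comparison and at most 0.24 in the pairs of HIF1A siRNA or the double knockdown against control siRNA. Over all genes the SD was also largest in pair 2 of this comparison, at 0.495, against 0.428 in pair 1 and 0.353 in pair 3. The members spread less than all genes in each pair, but in pair 2 their SD rose to near that of all genes. Of the members, 18 were above and 64 below control siRNA in pair 2, where 48.9% of all genes were above. By more than 1.2-fold, 41 members were lower and 7 higher, a limit not counted over all genes. RPL23 was at 482, 199 and 385 CPM in replicates 1, 2 and 3 of HIF2A siRNA, RPL39 at 255, 125 and 226 and RPS27 at 417, 219.7 and 394. In all 3 genes replicate 2 was the lowest of the 12 libraries. In the opposite direction, RPL41 was at 634, 887 and 529 CPM, RPS3 at 891, 1316 and 621 and RPS27A, which is made as a fusion with ubiquitin, at 524, 951 and 448. Replicate 2 was here the highest of the 12 libraries. The largest fold changes of members higher in all 3 pairs, RPL41 (0.31, SE 0.14), RPL10A (0.25, 0.10) and RPS3 (0.24, 0.11), were as low as 0.06, 0.15 and 0.12 when that library or all of replicate 2 was left out, and without replicate 2 the median over members was 0.23.

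Few members were called between the double knockdown and the single knockdowns. Against HIF1A siRNA, 0 of 82 members were called in edgeR and 1 in DESeq2 (1.4% of all genes), with 17 higher and 1 lower at an unadjusted p under 0.05 (5.22 and 6.97% of all genes) and a median log2 fold change of 0.22. Against HIF2A siRNA, 1 member was called (4% of all genes), RPS4X with a log2 fold change of 0.45 (SE 0.11, adjusted p = 0.033 in edgeR's test). At an unadjusted p under 0.05, 41 members were higher and 1 was lower (7.75 and 10.1% of all genes), and the median over members was 0.29. RPS4X lost this call in 13 of 23 alternative fits, among them those without any 1 of the 3 HIF1A siRNA libraries. Double knockdown was higher in all 3 pairs for 48 members against HIF1A siRNA and for 59 against HIF2A siRNA, where 19.4% and 19.8% of all genes were. Within replicate numbers, the double knockdown was the highest of the 4 libraries for 51, 72 and 69 of the 82 members in replicates 1, 2 and 3, against 24.8, 29.5 and 32.4% of all genes. The interaction, which is the double knockdown fold change minus the sum of the fold changes of the single knockdowns, was called in 0 of 82 members and 0 of 13000 genes by edgeR, and in 0 members by DESeq2. None of the members had an unadjusted p under 0.05 for it (0.885% of all genes with a positive and 1.56% with a negative value did), its median was 0.14 and it was positive in 69. Between HIF1A siRNA and HIF2A siRNA, 0 members were called by edgeR and 0 by DESeq2 (1.92% of all genes were called by edgeR), and RPL41 alone had an unadjusted p under 0.05, lower with HIF1A siRNA (6.83% of all genes). All 3 comparisons against control siRNA share the same control libraries. Among the 4 libraries of replicate 1, control siRNA was the lowest for 78 of 82 members, against 34.2% of all genes.

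**Figure D4:**
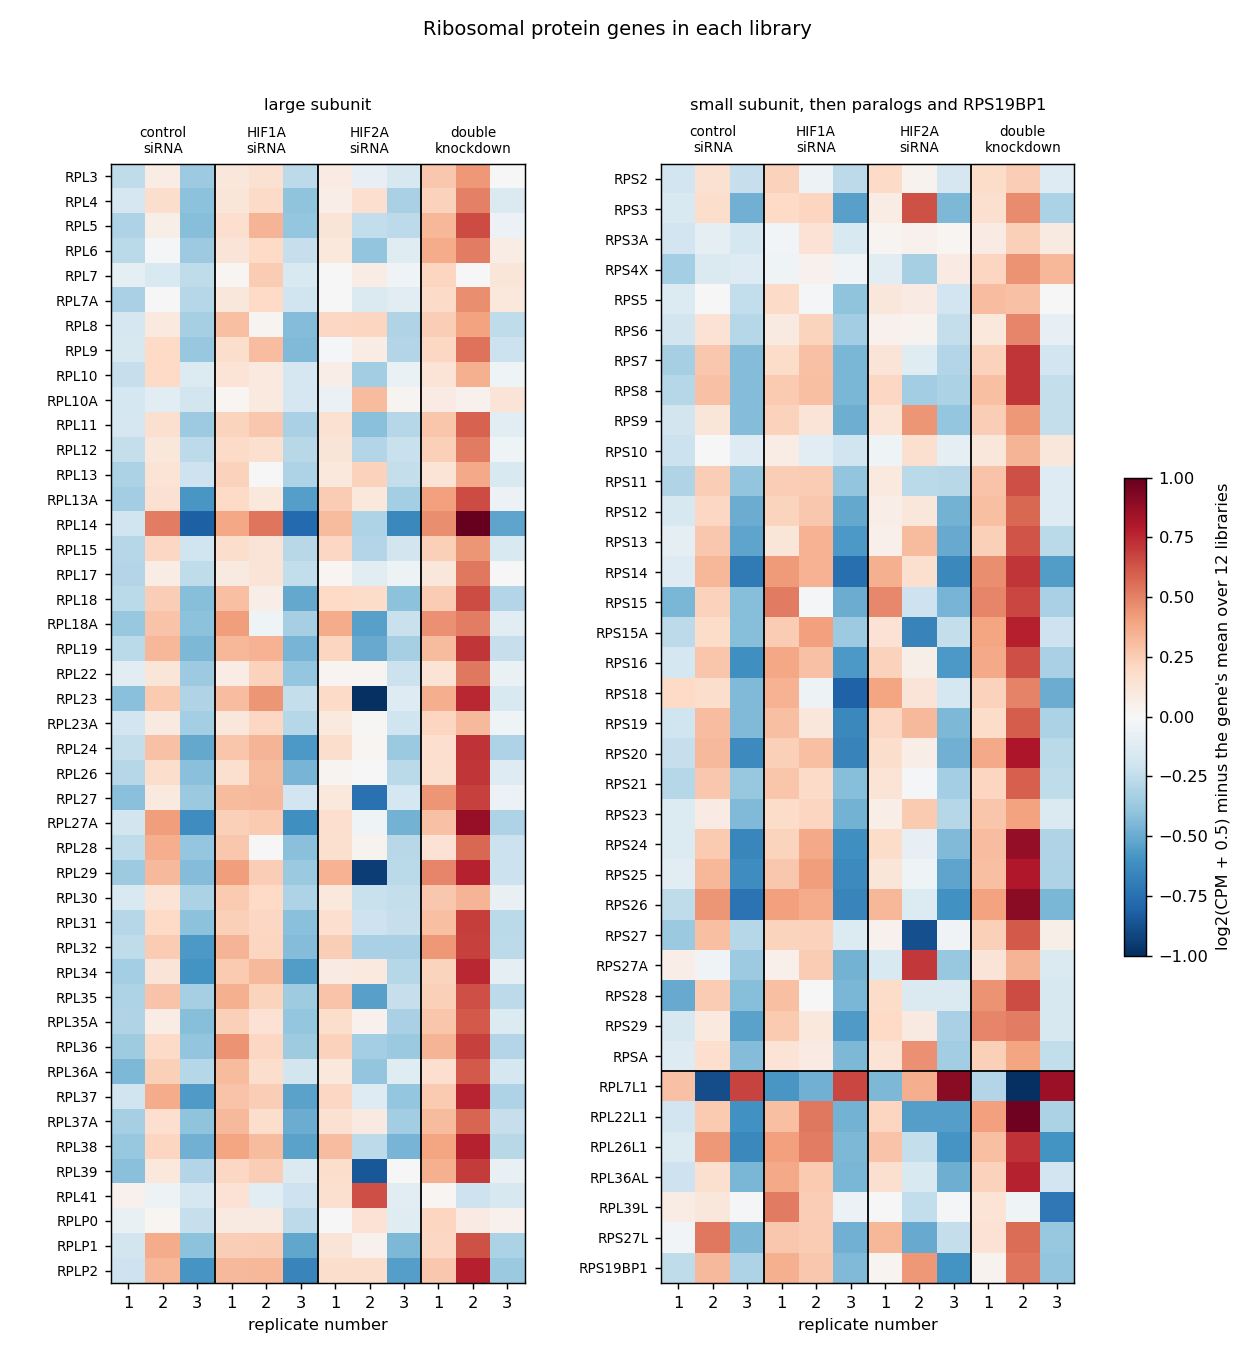
Log2(CPM + 0.5) minus the mean of the gene over 12 libraries (color, from -1 to 1) for the 82 tested members in rows and the libraries in columns, by siRNA group and replicate number. Double knockdown replicate 2 is the reddest column, with 78 members above their own mean. Below it are 77 members in control siRNA replicate 1 and 72 to 81 in the columns of replicate 3, HIF2A siRNA replicate 2 is mixed, and RPL7L1 runs opposite to most other rows.

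By role, members of the large subunit and of the small subunit had like medians in the double knockdown, 0.38 each. The stalk, which recruits elongation factors to the ribosome, is built from RPLP0, RPLP1 and RPLP2. RPLP0 was at 1806, 1927 and 1622 CPM with control siRNA and 2200.5, 2009 and 1960.0 in the double knockdown, RPLP1 at 577, 848 and 492 and 754, 1018 and 527, and RPLP2 at 508, 742 and 389.9 and 708, 1006 and 453. Only RPLP0 did not overlap between these groups, and none of the 3 was called (log2 fold changes of 0.21, 0.25 and 0.38, adjusted p = 0.172, 0.235 and 0.0697 in edgeR's test). RPL5 and RPL11 join the 5S ribosomal RNA and, when free, bind the p53 regulator MDM2. RPL5 was at 659, 849.7 and 607 CPM with control siRNA and 1025, 1282 and 781 in the double knockdown and was called (0.53, adjusted p = 0.0226), while RPL11 was at 333, 419 and 291 and 455, 565 and 347 CPM and was not (0.38, adjusted p = 0.127 in edgeR's test). Both overlapped between the groups.

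RPL3, which lies near the peptidyl transferase center, rose from 969 ± 155 to 1290.1 ± 194 CPM (SD, n = 3 each, log2 fold change 0.41, adjusted p = 0.0199 in edgeR's test). RPL10, a late-joining protein of the large subunit, was at 773 ± 126 and 889 ± 125 CPM and was not called (0.20, adjusted p = 0.395). In the small subunit, RPS6, the substrate of the S6 kinases, was at 525, 661 and 491 CPM with control siRNA and 643, 838 and 564 in the double knockdown (0.28, adjusted p = 0.0996). RPS19, the gene most often mutated in Diamond-Blackfan anemia, was at 773, 1098 and 653 and 1007, 1345 and 712 CPM (0.26, adjusted p = 0.211). RPSA, also known as the laminin receptor, was at 859, 1051 and 693 and 1106, 1229.7 and 789.6 CPM (0.26, adjusted p = 0.108). None of RPS6, RPS19 and RPSA passed edgeR's test, and in each the double knockdown was above control siRNA in all 3 pairs while replicate 3 was low in both groups. The fold changes of RPS2, RPS3 and RPS27A were 0.19, 0.26 and 0.21, and none was called (adjusted p = 0.319, 0.163 and 0.392 in edgeR's test).

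Of the 11 paralogs, 6 passed the expression filter and 0 were called in any comparison between siRNAs. RPL22L1, RPL26L1 and RPL36AL had positive fold changes, like the subunit genes, and none of them was called. RPL22L1 was at 83.6, 115 and 62.5 CPM with control siRNA and 127, 187 and 76.4 in the double knockdown (log2 fold change 0.54, SE 0.20), and its parent RPL22 at 263, 309 and 222 and 313, 412 and 272 CPM (0.32, SE 0.10). RPL26L1 and RPL36AL had fold changes of 0.26 and 0.44, against 0.43 for RPL26 and 0.36 for RPL36A. RPS27L, a p53 target gene, had 0.08 (SE 0.20), against 0.41 (0.22) for RPS27. RPL39L, known from testis and some tumors, was low in all libraries, at 14.8, 15.3 and 13.9 CPM with control siRNA and 15.5, 13.6 and 8.37 in the double knockdown, with a fold change of -0.26 (SE 0.19), against 0.53 (0.23) for RPL39. RPL39L in double knockdown replicate 3 was the lowest of the 12 libraries. Differences between a paralog and its parent were not tested.

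RPL7L1 ran opposite to most other members. It was at 76.0, 33.2 and 99.2 CPM with control siRNA, 41.1, 44.2 and 98.8 with HIF1A siRNA, 45.1, 79.6 and 116 after HIF2A siRNA and 50.4, 29.6 and 112 in the double knockdown. In each group the library of replicate 3 was the highest. Its log2 fold change between the double knockdown and control siRNA was -0.21 with an SE of 0.27, and its parent RPL7 had 0.28 (0.10). RPL3L and RPL10L, known from muscle and testis, had 0 counts in all 12 libraries. A count of 0 at this depth allows up to 3 counts per library. The Y-linked copies of RPS4X were counted as members, and their levels are not given.

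Replicate number separated the members more than the siRNAs did. In an F test over the replicate terms, 59 of 82 members (72%) were called, where 50.3% of all genes were (edgeR with Benjamini-Hochberg adjustment, adjusted p under 0.05). By class these were 28 of 45 genes of the large subunit, 25 of 30 of the small subunit and 5 of 6 paralogs. Replicate 3 was below replicate 1 in 80 members with a median fitted log2 fold change of -0.44, against -0.02 over all genes, and replicate 2 was above replicate 1 in 72 with a median of 0.12. All 4 libraries of replicate 3 lay below all 8 of replicates 1 and 2 in 25 members, against 12.1% of all genes. Of the variance of log2 expression pooled over the members, replicate number took 57.0% and siRNA 20.3%, against 49.8 and 25.8% pooled over all genes. Without replicate 3 there were 0 members called between replicates 1 and 2, and with a trend of GC content and length removed there were 34. The labels do not say what differs between the replicate numbers.

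The 3 members with the smallest p between replicate numbers were RPS13, RPS14 and RPLP2. RPS13 was at 376, 485 and 278 CPM with control siRNA, 437, 511 and 269 with HIF1A siRNA, 415, 499 and 283 after HIF2A siRNA and 473, 622 and 333 in the double knockdown. RPS14, whose loss marks a form of myelodysplastic syndrome, was at 809, 1115 and 542 CPM with control siRNA, 1193, 1131 and 525 with HIF1A siRNA, 1136, 988 and 568 after HIF2A siRNA and 1222, 1459 and 600.5 in the double knockdown. In both genes each replicate 3 library lay below all libraries of replicates 1 and 2. The log2 fold changes of replicate 3 against replicate 1 were -0.55 for RPS13, -0.95 for RPS14 and -0.69 for RPLP2 (adjusted p = 1.0e-05, 1.4e-05 and 3.8e-05 in edgeR's F test). In contrast, RPS4X had 0.13, RPL10A -0.01 and RPL7 -0.11, and none of these was called between replicate numbers (adjusted p = 0.475, 0.353 and 0.43). RPL7L1 had 1.01 (adjusted p = 0.000863 in edgeR's F test). The 41 tested subunit genes with a tract at the annotated start had a median of -0.49 between replicates 3 and 1 and 0.36 in the double knockdown. The 20 with none at that base had -0.38 and 0.40. Among these 20, the 7 with no tract within 10 bases of the annotated start had -0.27 and 0.47. Differences between these sets were not tested.

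**Figure D5:**
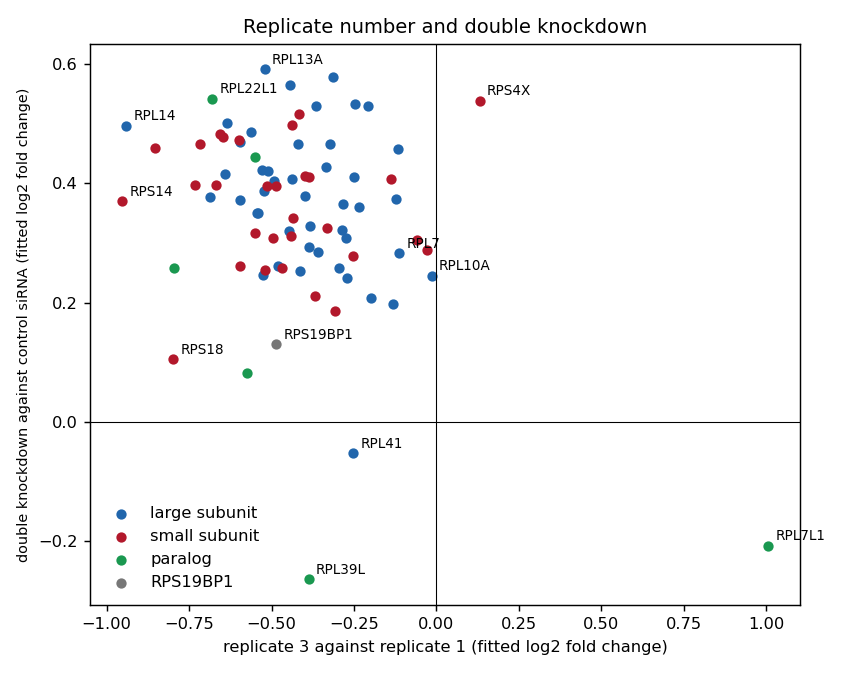
Fitted log2 fold change of replicate 3 against replicate 1 (x axis) and of the double knockdown against control siRNA (y axis) for each tested member, colored by class. Most points lie at upper left, RPS4X is at 0.13 and 0.54, and RPL7L1 is at 1.01 and -0.21.

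Other genes of the translation machinery were read from fixed lists beside the members. Of 33 other TOP genes, 7 were called higher in the double knockdown (21.2%, against 3.86% of all genes) and 0 lower, with a median log2 fold change of 0.30. These were EEF2 and EEF1G, which encode elongation factors (0.34 and 0.32), EIF3E of initiation factor eIF3 (0.43), the nucleolar chaperone NPM1 (0.35) and the snoRNA host genes GAS5, SNHG1 and SNHG8 (0.51, 0.58 and 0.81). Their adjusted p lay between 0.00287 (SNHG8) and 0.0414 (GAS5) in edgeR's test. FAU, which encodes a ribosomal protein fused to a ubiquitin-like protein and which the symbol rule does not take in, had a fold change of 0.18 and was not called (adjusted p = 0.406 in edgeR's test). EEF1G was at 831, 849.8 and 803 CPM with control siRNA and 1063, 1047 and 982 in the double knockdown, with no overlap.

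Ribosome biogenesis factors and the RNA polymerases that transcribe ribosomal RNA were called higher in shares near that of all genes, 3.86%. Of 57 biogenesis factors 3 were called higher (5.26%) and 0 lower, with a median of 0.13, and 17 were higher at an unadjusted p under 0.05, against 11.5% of all genes. They were NOP2, NIP7 and EBNA1BP2, all of large subunit assembly, with fold changes of 0.34, 0.35 and 0.35 (adjusted p = 0.0397, 0.0424 and 0.0496 in edgeR's test). Of 33 genes of RNA polymerase I and III, 1 was called higher (3.03%), TAF1D (0.45, adjusted p = 0.0389) and the median was 0.07. Of 75 mitochondrial ribosomal protein genes, whose products form the separate ribosome of mitochondria, 2 were called higher (2.67%), MRPS28 (0.49, adjusted p = 0.0451) and MRPS33 (0.54, adjusted p = 0.043 in edgeR's test). The median of the 75 genes was 0.22, and 68 of them had a positive fold change. At an unadjusted p under 0.05, 23 of 75 were higher, against 11.5% of all genes, and 0 were lower. With HIF1A siRNA or HIF2A siRNA alone, 0 genes of these 4 lists were called, where 1.39% and 0.2% of all genes were. In each comparison 9 list genes, in both directions, had an unadjusted p under 0.05 in edgeR's test. Of all 13000 genes, 1119 and 869 did.

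Among 18 regulators of ribosomal protein synthesis, 4 fell and 1 rose in the double knockdown (27.8%, against 10.3% of all genes in either direction and 6.42% lower). DDIT4, an inhibitor of the mTOR complex mTORC1 and a known HIF-1 target, was at 180.5, 130.1 and 116 CPM with control siRNA, 74.9, 44.2 and 59.1 with HIF1A siRNA, 153, 135 and 111 after HIF2A siRNA and 34.7, 28.8 and 27.2 in the double knockdown. All double knockdown libraries lay below all others, and the libraries of HIF1A siRNA below those of control siRNA and HIF2A siRNA. Its log2 fold change was -2.22 in the double knockdown (adjusted p = 9.9e-08) and -1.25 with HIF1A siRNA (adjusted p = 4.3e-05 in edgeR's test), the only call of the list with a single siRNA. In the double knockdown RHEB, the activator of mTORC1, fell by 0.40 on the log2 scale (adjusted p = 0.0164), the S6 kinase gene RPS6KB1 by 0.53 (adjusted p = 0.0132) and the p53 target CDKN1A by 0.44 (adjusted p = 0.0236 in edgeR's test). AKT1S1, a further inhibitor of mTORC1, rose by 0.48 (adjusted p = 0.0277). MYC, LARP1 and MTOR had fold changes of 0.02, -0.12 and -0.27 and were not called (adjusted p = 0.931, 0.478 and 0.13 in edgeR's test). The members of this list act in both directions on mTORC1, and its median of -0.15 has no single reading.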

How the data were processed

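The deposited files hold raw counts per gene symbol, 1 file per library, over the same 23106 symbols. The authors trimmed adaptors with Trim Galore (0.3.3), aligned reads to hg19 with HISAT2 (2.05), left out fragments without a unique place with Picard (2.0.1) and counted with HTSeq (0.5.4p3), and whether strand was used is not given in the sources used here. Members with near-identical copies therefore lose counts. From these counts, all 12 libraries were fitted together with edgeR (4.0.16, in R 4.3.3) by its quasi-likelihood test, with TMM factors (0.980 to 1.02), the replicate number as a block, edgeR's expression filter (minimum count 10, total 15, 13000 genes) and Benjamini-Hochberg adjustment. The study's methods pair conditions by biological replicate, and libraries of the same number deviated together from their group means (r from 0.0991 to 0.813 across genes, above 0.1 in 17 of 18 pairs). Different numbers gave -0.724 to 0.527. Pair ratios were taken after adding 0.5 CPM. CPM were computed from total counts scaled by TMM. The largest number of counts that a listed 0 allows was set at 3, for counting error only. Transcript lengths are medians over GENCODE v44 basic transcripts (GRCh38), found for 88 of 89 members. Start sites were read from RefSeq promoters (GRCh38.p14), another build than the files', and no coordinates were taken across. The script was tested on simulated data first. Alternatives were DESeq2 (1.42.0) size factors or test, other filters, no block, fits in which a trend of GC content and length was removed (splines with 5 degrees of freedom), TMM without the members, fits of only the compared libraries, and each replicate number or library left out. Named genes were those called (at most 6 per direction), the 3 largest fold changes in each direction that 3 pairs shared, fixed names by role, the paralog pairs, the 5 highest and 5 lowest levels per length and the 3 smallest p between replicate numbers. A few others are named because they departed from the rest, after their values were seen. The members and lists were chosen with earlier results of these data known. Single values of a few genes are not reported here.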

Additional observations from a re-analysis of the deposited data

How the results depend on the processing

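All members called in the double knockdown against control siRNA were higher in every fit, but their number ranged widely around 17. It was 31 with no expression filter, 0 with no replicate block, 29 with the replicate block and a trend of GC content and length removed (15.4% of all genes, median over members 0.27), 37 with DESeq2's test and 71 with only the 6 libraries compared. Leaving out 1 replicate number or 1 library gave 0 to 59 calls and a median log2 fold change from 0.25 to 0.45. Against HIF1A siRNA (0 calls) the number was 2 with the trend removed, 1 with DESeq2, 5 with only the libraries compared and 0 to 2 with a replicate or library left out. Against HIF2A siRNA (1 call) it was 4 with no filter, 0 without the block, 2 with the trend removed, 5 with DESeq2, 0 with only the libraries compared and 0 to 2 with a replicate or library left out. For replicate number (59 calls) it was 34 with the trend removed and 0 to 76 with a replicate or library left out. DESeq2 size factors, at least 10 counts in every library and TMM factors without the members left these counts within 1.5 times. The counts of 0 for each single siRNA against control siRNA, for HIF1A siRNA against HIF2A siRNA and for the interaction stayed 0 in all fits run. The cause of these shifts was not tested. With 3 libraries per group, the replicate block took up much of the spread, and members under the filter could not be read at this depth.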
